A study of Mus musculus with 32 samples.

Results

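The block described here is the stretch of mouse chromosome 14 from 90 to 100 Mb (build mm10). Its members were all MapR peaks whose start lay in that span, together with the listed chromatin-bound transcripts that started in it. The rule gave 469 of the 61948 peaks in 6 deposited peak lists and 8 of the 5723 transcripts in the authors' deposited table. The span had been chosen because the number of peaks in it differed between the genotypes, so every difference between genotypes below, in peaks or transcripts, is a description and carries no test.

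The samples were H1-TKO cells, a mouse embryonic stem cell line labelled as a triple knockout of the linker histone H1, and WT embryonic stem cells, both grown in serum with LIF. The labels do not say whether either line is 1 clone or whether replicates came from separate cultures, so the p-values below measure only the spread between these libraries. MapR had 2 RNH libraries per genotype, made with a fusion of RNase H and micrococcal nuclease, and 1 MNase-only library per genotype, made with the nuclease without RNase H. Chromatin-bound RNA (cheRNA) was taken from 3 samples per genotype and is represented by a table of fold changes with no value per sample.

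R-loops are hybrids of RNA with one DNA strand that leave the other strand unpaired, and they form mostly where RNA is being made, often at GC-rich promoters. RNase H binds such hybrids, which is why the fusion protein is used to cut DNA beside them. Linker histone H1 binds nucleosomes where DNA enters and leaves, and helps to fold chromatin. The block is poor in genes: it held 11 protein-coding genes, or 1.10 per Mb against 7.22 per Mb on chromosome 14, and 20.4% of its length lay in their bodies. Its GC content was 37.0%, against 41.2% for the whole chromosome.

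The TKO libraries had 36 and 7 RNH peaks in the block (replicates 1 and 2), against 252 and 169 in the WT libraries. As a share of each library's list this was 0.142% and 0.108% in TKO, against 1.13% and 2.56% in WT. The mean share was 0.125% ± 0.0236 in TKO and 1.84% ± 1.01 in WT (SD, n = 2 each), a log2 TKO over WT of -3.88 or 14.7-fold lower in TKO. The 2 groups did not overlap, which repeats the difference by which the block was chosen. Without WT replicate 2 the log2 value was -3.17, and without WT replicate 1 it was -4.35. Among 269 bins of 10 Mb with at least 50 peaks genome-wide, the block had the lowest mean log2 ratio of shares (-3.72, with 0.5 peaks added to each count), and the next lowest bin stood at -1.43. Of the 269 bins, 3 lay under -1 in both replicates, the block among them. No depth can be given, since the lists hold peaks and not reads.

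The block did not differ from its surroundings in the same way in both genotypes. In TKO it had 3.60 and 0.700 peaks per Mb, where the rest of chromosome 14 had 8.40 and 1.96. In WT it had 25.2 and 16.9 peaks per Mb, where the rest had 7.51 and 2.07. The gene-poor block was thus sparser in peaks than the rest of the chromosome in both TKO libraries, and denser in both WT libraries. The median distance between neighbouring peak starts was 128 kb in TKO replicate 1 and 1625 kb in TKO replicate 2, against 24.0 kb and 33.0 kb in WT replicates 1 and 2. Peaks covered 15.3 kb and 1.61 kb of the block in TKO, against 121 kb and 57.0 kb in WT.

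**Figure D1:**
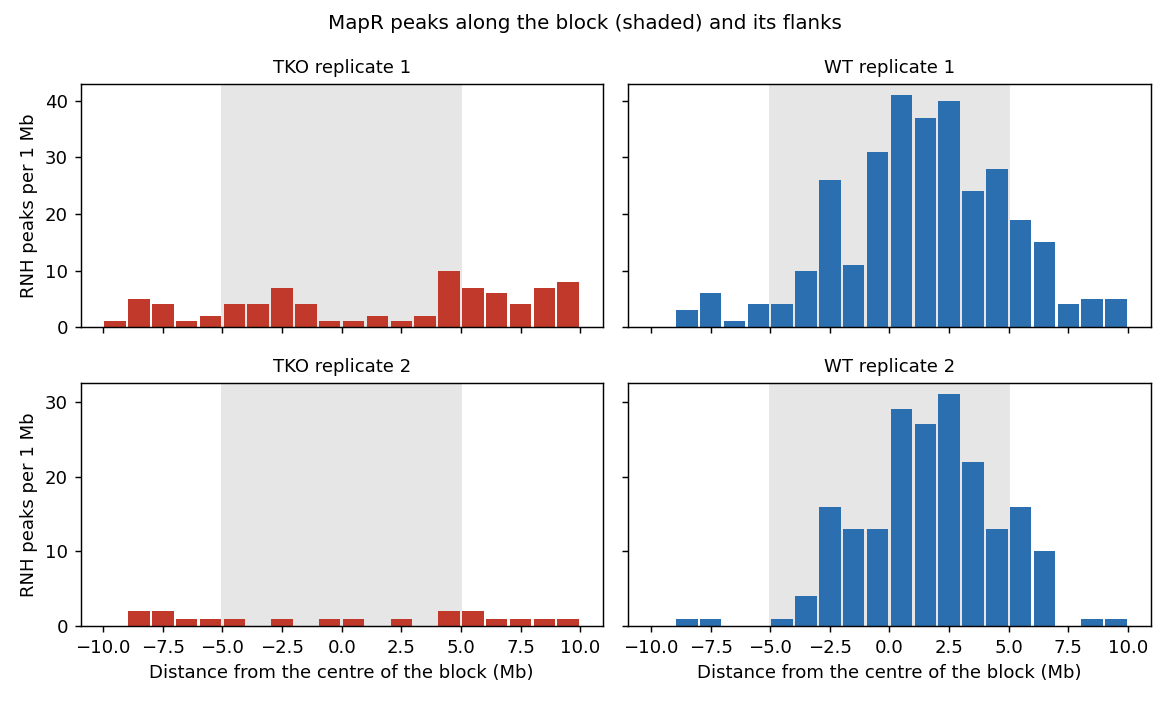
RNH peaks per 1 Mb bin (vertical axis, number of peaks) against distance from the centre of the block (Mb), with TKO libraries on the left, WT libraries on the right, replicate 1 above and replicate 2 below; the block is shaded. WT bins reach 41 and 31 peaks, and the excess runs past the upper end of the block.

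Bins of 1 Mb showed where the difference began and ended. From 85 to 90 Mb the TKO libraries had 13 and 6 peaks (2.60 and 1.20 per Mb) and the WT libraries 14 and 2 (2.80 and 0.400 per Mb). From 90 to 92 Mb there were 8 and 1 in TKO (4.00 and 0.500 per Mb), against 14 and 5 in WT (7.00 and 2.50 per Mb). Both WT libraries and TKO replicate 1 were denser there than in the flank, and TKO replicate 2 was sparser. From 90 to 91 Mb alone the genotypes had the same counts, 4 in replicate 1 and 1 in replicate 2. From 92 to 100 Mb the TKO libraries had 28 and 6 peaks, against 238 and 164 in WT. The difference did not stop at 100 Mb: from 100 to 102 Mb there were 13 and 3 peaks in TKO, against 34 and 26 in WT. From 102 to 105 Mb the counts were 19 and 3 in TKO and 14 and 2 in WT. In each of the 10 bins from 92 to 102 Mb both WT libraries exceeded both TKO libraries. The limits of this stretch were read from these same counts, and 1 Mb bins elsewhere in the genome were not counted in this way. From 92 to 102 Mb the highest bin had 10 peaks in TKO replicate 1 and 2 in TKO replicate 2, and the lowest had 11 in WT replicate 1 and 10 in WT replicate 2.

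Fold enrichment, the authors' value for a peak's signal over its local background, is used here to describe peaks. Each list was made separately, so heights set side by side across lists are not evidence of change. The last peak below 90 Mb had a fold enrichment of 4.80 in TKO replicate 1, 5.01 in TKO replicate 2, 3.86 in WT replicate 1 and 3.83 in WT replicate 2. In replicate 1, the first above 90 Mb had 4.33 in TKO and 4.15 in WT. At 100 Mb the last peak inside had 4.30 and 5.73 in TKO and 2.43 and 3.06 in WT, and the first outside had 5.16 and 7.26 in TKO and 3.17 and 3.84 in WT.

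The peaks of all 4 RNH lists merged into 362 regions. Of these, 323 had WT peaks and no TKO peak, 29 had peaks of both genotypes and 10 had TKO peaks and no WT peak. Most regions, 276, came from 1 library. Between replicates, 42.9% of TKO replicate 2 peaks in the block met a peak of TKO replicate 1, and 40.2% of WT replicate 2 peaks met one of WT replicate 1. Outside the block these shares were 65.0% in TKO and 61.2% in WT. Taken from the other side, 8.33% of TKO replicate 1 peaks in the block met replicate 2, as did 27.4% of WT replicate 1 peaks. Outside the block these shares were 16.2% in TKO and 17.7% in WT, so that in this direction the WT share was higher in the block.

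Regions found in both WT libraries numbered 68, and 57 of them met no peak of either TKO library. Genome-wide 11.5% of the 3909 regions found in both WT libraries met no TKO peak, and on the rest of chromosome 14 this was 17 of 138. The block held 12.7% of all such regions. In the other direction, 3 regions were found in both TKO libraries, and 0 of them lacked a WT peak, where 10.8% of 4055 such regions lacked one genome-wide. These shares repeat the difference by which the block was chosen. Of the 68 regions 57 lacked a peak of TKO replicate 1 and 66 a peak of the shorter TKO replicate 2.

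The sequences that follow show the kinds of DNA under these peaks, and all coordinates and sequences are from GRCm38.p6, the assembly behind mm10. The first 3 are 201 bases around the summit of the WT replicate 1 peak, on the plus strand. Capitals mark runs of at least 4 G or 4 C, since G-rich strands favour R-loops. The first (chr14:92929838-92930038) was in all 4 RNH lists, and chr14:91655897-91656097 and chr14:94119368-94119568 had the highest smaller WT fold enrichment among regions in both WT lists and no TKO list.
Region in all 4 RNH lists: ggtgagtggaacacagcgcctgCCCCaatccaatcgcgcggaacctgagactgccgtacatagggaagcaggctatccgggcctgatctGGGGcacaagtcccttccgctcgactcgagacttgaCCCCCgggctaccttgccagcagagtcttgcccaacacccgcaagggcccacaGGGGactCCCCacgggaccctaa
First WT region: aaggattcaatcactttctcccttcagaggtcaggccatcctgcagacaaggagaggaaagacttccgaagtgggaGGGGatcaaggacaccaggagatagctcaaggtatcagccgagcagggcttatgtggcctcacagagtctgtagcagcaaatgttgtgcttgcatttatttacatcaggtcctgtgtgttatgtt
Second WT region: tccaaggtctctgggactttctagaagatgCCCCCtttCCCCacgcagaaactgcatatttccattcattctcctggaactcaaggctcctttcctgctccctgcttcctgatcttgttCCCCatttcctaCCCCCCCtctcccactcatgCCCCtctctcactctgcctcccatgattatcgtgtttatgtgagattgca

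The region in all 4 RNH lists had fold enrichments of 3.99 and 4.87 in TKO and 4.17 and 5.51 in WT, and no MNase-only peak. It lay 960 kb from the nearest annotated start of a coding gene, that of Pcdh9. The first WT region had no peak in TKO and fold enrichments of 4.33 and 4.23 in WT. The second WT region had no peak in TKO and 4.02 and 4.03 in WT. Of the 10 regions with the highest smaller WT fold enrichment, 9 were intergenic, 0 lay at a promoter, and 5 had a peak in TKO replicate 1. Of these 5, chr14:92595774-92596443 had 5.05 in TKO replicate 1 and 4.60 and 4.03 in WT. The region chr14:92383352-92384071 had 3.61 in TKO replicate 1 and 3.77 and 4.14 in WT, and chr14:98237780-98238435 had 4.76 in TKO replicate 1 and 3.61 and 4.03 in WT. Among these 3 the order of the genotypes differed, and TKO replicate 2 had no peak in any of them. The other 3 regions with no TKO peak were chr14:96860505-96860942 (3.74 and 3.67 in WT), chr14:97934407-97935038 in an intron of Dach1 (3.66 and 3.79 in WT) and chr14:97160936-97161557 (3.59 and 3.60 in WT).

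Of the 7 peaks of TKO replicate 2, 2 were in regions of all 4 RNH libraries. The printed region in all 4 RNH lists held one of them (4.87). A peak in an intron of Mzt1 (chr14:99039338-99039582) had a fold enrichment of 5.81 in TKO replicate 2 and met peaks of 5.31 in TKO replicate 1 and 2.66 in WT replicate 1, with none in WT replicate 2. Of 4 others, with fold enrichments of 5.09 to 6.79, 2 met a peak of WT replicate 1 and 2 met no other library.

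WT peaks of the block were lower than the WT peaks elsewhere, and TKO peaks of the block were higher than the TKO peaks elsewhere. The median fold enrichment in the block was 4.31 in TKO replicate 1 and 5.81 in TKO replicate 2, against 3.80 and 4.67 in the rest of the same libraries. In WT replicates 1 and 2 it was 2.93 and 3.38 in the block, against 3.75 and 4.36 in the rest. The difference of median log2 fold enrichment, block minus rest, was 0.18 and 0.32 in TKO and -0.36 and -0.36 in WT. Its mean over the 4 libraries was -0.06 ± 0.36 (SD, n = 4; two-sided exact sign-flip permutation test, p = 0.75; 4 libraries can give no p below 0.125). The opposite signs of the genotypes cancel in this mean, so the test does not show that heights in the block equal those elsewhere. Intergenic peaks alone gave 0.16 and 0.33 in TKO, and -0.40 and -0.37 in WT.

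**Figure D2:**
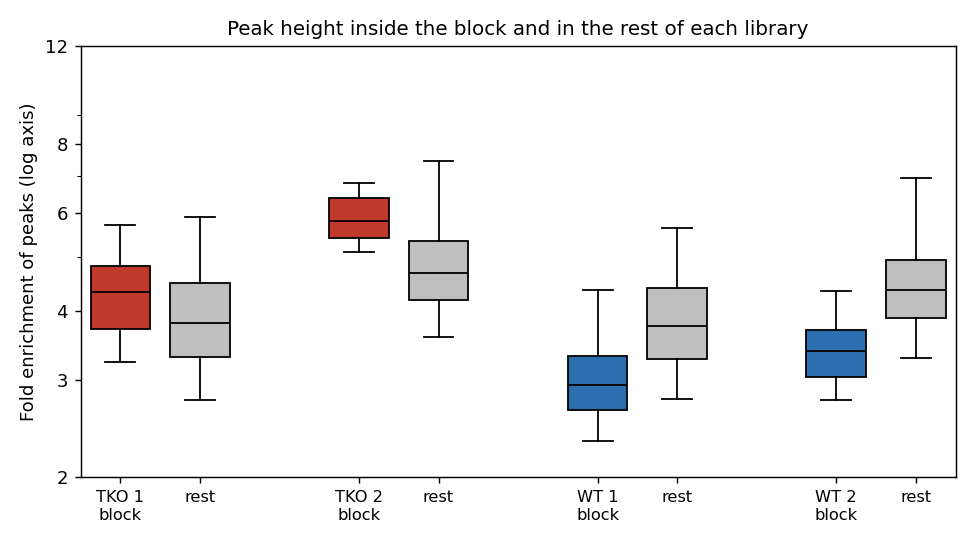
Fold enrichment of RNH peaks (log axis) in the block (coloured) and in the rest of the same library (grey), TKO libraries in red and WT libraries in blue; boxes span the quartiles with the median as a line, and whiskers the 5th to 95th percentiles. The medians of both TKO libraries lie above their rest, and those of both WT libraries below.

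Regions with peaks in both genotypes were set side by side as a description. In the 27 regions with a peak in replicate 1 of both genotypes, the median fold enrichment was 4.49 in TKO and 3.73 in WT, with a median log2 TKO over WT of 0.29 and a higher value in TKO in 22 regions. In the rest of the genome 14181 such regions had a median log2 value of 0.04, and 56.6% were higher in TKO. All these regions had to be listed in TKO replicate 1, which had few peaks in the block. In the block 10.7% of WT replicate 1 peaks met a TKO replicate 1 peak, against 65.8% in the rest. The block and the rest were thus not filtered alike, and these heights are not evidence of change. Replicate 2 had 2 such regions in the block, 1 higher and 1 lower in TKO. Peaks at a -log10 q of at least 5 made up 63.9% and 71.4% of TKO block peaks, against 42.5% and 29.0% of WT block peaks. In the rest of the same libraries they made up 58.7% and 38.5% in TKO and 60.6% and 37.9% in WT. They numbered 23 and 5 in the TKO block, against 107 and 49 in the WT block. As a share of each list's peaks at this threshold, the log2 TKO over WT was -2.96, against -3.88 for all peaks. These stronger peaks are part of those by which the block was chosen, so their counts are a description.

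The nuclease control had few peaks in the block, 1 in TKO and 4 in WT. Of the WT control peaks, 3 met no TKO control peak. They lay within an intron of Pcdh9 (chr14:93580432-93580619, fold enrichment 5.31) and between genes (chr14:95028274-95028582, 6.76, and chr14:96846122-96846350, 4.15), and none of the 3 met an RNH peak. Of the 362 RNH regions, 1 met a control peak, in both genotypes. The block share of control peaks was 0.172% in TKO and 0.704% in WT, with 1 library each and no replicate check. Control peaks stood in the same order as RNH peaks, on very small counts. Whether the lines carried the same amount of DNA over this stretch was not tested.

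Peaks of the block lay mostly between genes. In TKO replicates 1 and 2 they fell at promoters, within 1 kb of an annotated start, in 6 of 36 and 0 of 7 cases, and in WT replicates 1 and 2 in 15 of 252 and 7 of 169 cases. As a share this was 16.7% and 0% in TKO and 5.95% and 4.14% in WT, where the rest of the same libraries had 49.1% and 50.7% in TKO and 49.2% and 40.8% in WT. The block share was lower in 4 of 4 libraries, by a mean of 40.8 percentage points (the difference was -40.8 ± 7.98, SD, n = 4; two-sided exact sign-flip permutation test, p = 0.125, the smallest possible). Against the rest of chromosome 14 the mean difference was -38.75 percentage points. The block has few coding genes (1.1 per Mb, against 7.22 on chromosome 14), and all 4 libraries were read on the same annotation. How much of its length lies near an annotated start was not measured. The test therefore cannot tell a shortage of starts from fewer peaks per start. Intergenic peaks made up 66.7% and 71.4% of block peaks in TKO and 72.6% and 72.2% in WT.

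The block's peaks were also poorer in GC and richer in repeats than peaks elsewhere. Median GC content was 59.4% and 51.5% in TKO block peaks and 48.1% and 48.5% in WT block peaks, against 61.1% and 56.9% in the rest of the TKO lists and 60.1% and 58.1% in the rest of the WT lists. The difference was negative in 4 of 4 libraries (mean -7.17 ± 4.54 percentage points, SD, n = 4; two-sided exact sign-flip permutation test, p = 0.125, the smallest possible). All these medians exceeded the 37.0% of the block's own sequence. The median share of bases that the reference marks as repeats was 72.7% and 100% in TKO and 68.2% and 76.0% in WT, against 8.03% and 8.65% in the rest of the TKO lists and 8.59% and 15.9% in the rest of the WT lists. Among intergenic peaks alone that difference lost its common sign: it was 2.39 and 64.5 percentage points in TKO, and 6.27 and -6.70 in WT. In all, 38.0% of the block's bases are marked as repeats.

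**Figure D3:**
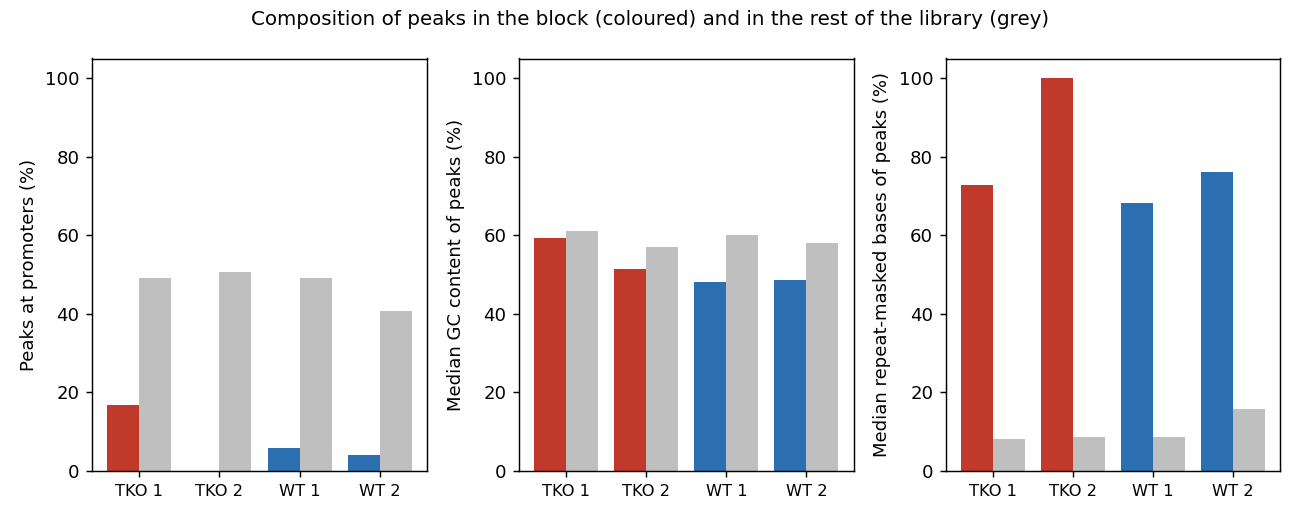
Share of RNH peaks at promoters, median GC content of peaks and median share of repeat-masked bases (vertical axes, %), for the block (red for TKO, blue for WT) and for the rest of the same library (grey). Promoter share and GC content are lower in the block than in the rest in each of the 4 libraries, and the repeat share is higher.

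One repeated sequence recurred under the WT peaks. The 16-base word held by the most regions, counted on both strands, was TACTGGTTAGTTCATA, chosen from these regions and so given as a description. It lay in 37 of the 362 regions (10.2%), in 7 of the 68 found in both WT libraries and in 1 of the 39 with a TKO peak. Windows of the block of the same width as the median region (386 bp) held it in 1.41% of cases. By library it was under 0 of 36 and 1 of 7 TKO block peaks, against 26 of 252 (10.3%) and 15 of 169 (8.88%) WT block peaks. In all peaks of the rest the shares were 0.528% and 0.977% in TKO and 0.417% and 2.51% in WT. Among intergenic peaks the word was under 0 of 24 and 1 of 5 TKO block peaks, against 1.15% and 2.14% in the rest. In WT replicates 1 and 2 it was under 12.02% and 8.197% of intergenic block peaks, against 0.857% and 4.88% in the rest. Among intergenic peaks the contrast was thus smaller in WT replicate 2 than in WT replicate 1. The 3 copies below lie in regions of both WT lists that met no TKO peak, at chr14:96860877-96860952 and chr14:96482306-96482381 on the minus strand and chr14:97123077-97123152 on the plus strand, with the word in capitals and 30 bases on each side.
First copy: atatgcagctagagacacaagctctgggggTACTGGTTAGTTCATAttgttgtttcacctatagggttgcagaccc
Second copy: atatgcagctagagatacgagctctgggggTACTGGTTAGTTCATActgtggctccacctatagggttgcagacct
Last copy: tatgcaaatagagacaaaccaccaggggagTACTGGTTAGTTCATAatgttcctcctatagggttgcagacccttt

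The 3 copies continue into similar flanking letters on both sides. Their regions had modest peaks. The region of the first copy had WT fold enrichments of 3.74 and 3.67. That of the second, in an intron of Klhl1, had 3.06 and 4.30, and that of the last had 3.06 and 3.01.

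Among the coding genes, 3 long ones lay in the gene-poor part. Pcdh9, a protocadherin of neuronal cell adhesion (877 kb, chr14:93013410-93890679, minus strand), had 3 and 0 peaks on its body in TKO, against 11 and 11 in WT. Klhl1, an actin-binding kelch protein gene of neurons (416 kb, chr14:96102736-96519102, minus strand), had 0 and 0 peaks in TKO, against 22 and 14 in WT. Dach1, a transcriptional repressor gene of eye and limb development (383 kb, chr14:97786853-98169765, minus strand), had 1 and 0 in TKO, against 7 and 11 in WT. These counts are part of the difference by which the block was chosen, and coding genes elsewhere were not compared in this way. Near their starts, Pcdh9 had a promoter peak of fold enrichment 4.94 in TKO replicate 1 and 4.04 in WT replicate 1, and Klhl1 had none in TKO and 3.10 in WT replicate 1. A region close to the start of Dach1 (chr14:98167638-98168606) had 3.24 in TKO replicate 1 and 2.86 and 3.30 in WT, with no peak in TKO replicate 2. Its WT peaks came within 1 kb of an annotated start of Dach1, and its TKO replicate 1 peak did not. The short genes 4921530L21Rik and Rpl36a-ps1 had no peak on their bodies in any RNH library. None of the 3 had a listed gene transcript in the cheRNA table, which holds changed transcripts and cannot tell unchanged genes from silent ones.

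**Figure D4:**
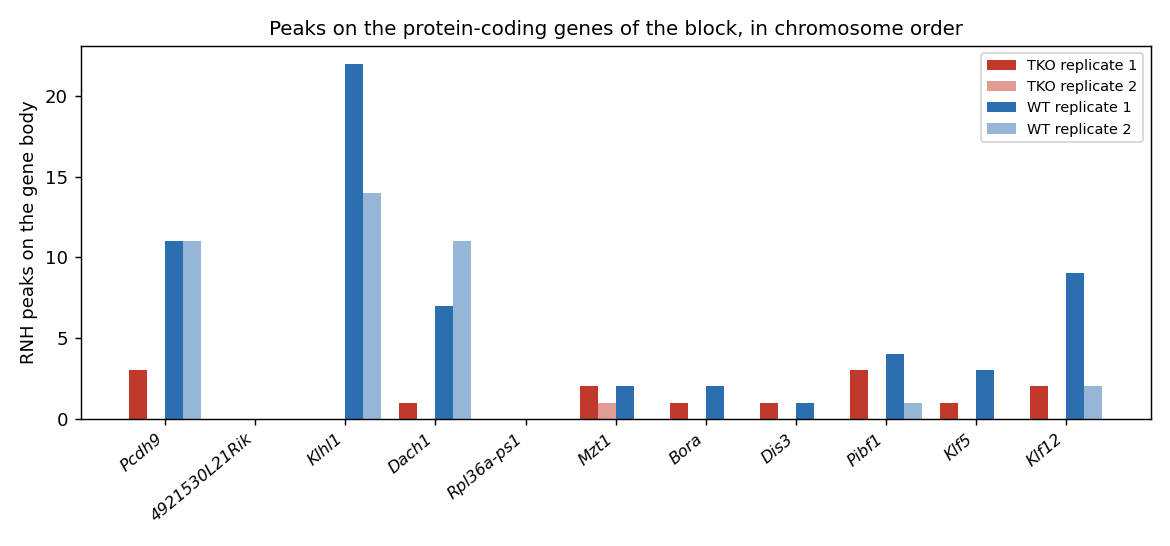
Number of RNH peaks (vertical axis) on the body of each of the 11 protein-coding genes of the block, in chromosome order, for TKO replicates (red) and WT replicates (blue), with replicate 2 in the paler shade. Klhl1 shows 22 and 14 peaks in WT and 0 in both TKO libraries, while the short genes from Mzt1 to Dis3 have at most 2 peaks in any library.

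The short genes around 99 Mb had promoter peaks in both replicate 1 libraries. Mzt1, a subunit of the gamma-tubulin ring complex that starts microtubules, and Bora, a cofactor by which Aurora A activates Plk1 in mitosis, face away from each other from 1 start region. It had a fold enrichment of 2.85 in TKO replicate 1 and 2.55 in WT replicate 1. Dis3, a catalytic nuclease of the RNA exosome, and Pibf1, a centrosome and cilium protein gene, share another, with 3.72 in TKO replicate 1 and 2.57 in WT replicate 1. Neither start region had a peak in replicate 2 of either genotype. The start of Klf5, a transcription factor gene of stem cell self-renewal, had 3.71 in TKO replicate 1, against 2.59 and 2.76 in WT replicates 1 and 2, and no peak in TKO replicate 2. At each of these 3 start regions the TKO replicate 1 peak was higher than the WT replicate 1 peak. This was so in 22 of the 27 block regions with a peak in replicate 1 of both genotypes, and in 56.6% of such regions elsewhere. As above, these heights come from separate lists and are not evidence of change. Klf12, whose body reaches past 100 Mb (chr14:99870632-100284679, minus strand), had 2 and 0 peaks on its body in TKO, against 9 and 2 in WT. Within 1 kb of its annotated starts, counted past 100 Mb too, all 4 libraries had a peak. The highest had a fold enrichment of 3.79 and 7.26 in TKO and 2.72 and 3.84 in WT.

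RefSeq promoter sequences (build GRCm38.p6, 250 bases before to 50 after a start) were matched for 7 of the 11 coding genes. Those of Mzt1 and Dis3 are shown because each overlapped a peak in replicate 1 of both genotypes and each gene had a transcript in the cheRNA table. Both read 5′ to 3′ on the minus strand, at chr14:99046087-99046386 and chr14:99099721-99100020, with runs of at least 4 G or 4 C in capitals.
Mzt1 promoter: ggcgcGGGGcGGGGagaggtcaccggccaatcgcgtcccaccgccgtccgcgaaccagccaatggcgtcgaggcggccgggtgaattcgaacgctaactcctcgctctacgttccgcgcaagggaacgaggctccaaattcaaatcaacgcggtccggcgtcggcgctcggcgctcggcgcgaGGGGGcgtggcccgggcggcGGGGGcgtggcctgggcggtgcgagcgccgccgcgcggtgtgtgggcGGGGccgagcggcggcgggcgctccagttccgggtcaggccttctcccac
Dis3 promoter: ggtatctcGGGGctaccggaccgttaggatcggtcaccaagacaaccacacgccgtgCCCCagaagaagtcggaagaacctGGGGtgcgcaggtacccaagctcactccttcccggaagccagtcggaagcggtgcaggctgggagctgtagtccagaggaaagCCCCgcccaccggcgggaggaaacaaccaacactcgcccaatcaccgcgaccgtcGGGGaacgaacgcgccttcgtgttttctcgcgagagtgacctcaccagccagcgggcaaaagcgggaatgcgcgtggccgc

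Each of these promoters held 5 such runs, with a GC content of 74.7% for Mzt1 and 64.0% for Dis3. The letters GGGG or CCCC occurred in 86.4% of the 32851 RefSeq promoters. In windows of 201 bases across the block they occurred in 42.6%. Under the block's RNH peaks they occurred in 86.1% and 71.4% of TKO and 94.4% and 94.7% of WT peaks, and under peaks of the rest in 93.8% and 89.9% of TKO and 95.6% and 92.0% of WT peaks. These sets were not matched in width, and a longer stretch has more places for such a run. The median width of block peaks was 379 and 210 bases in TKO and 424.5 and 309 in WT. The shares therefore do not measure enrichment over the windows or a difference between the genotypes.

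The cheRNA table was then read for the same stretch. All 8 listed transcripts that started in the block were lower in TKO in the authors' deposited table, where 39.9% of all listed transcripts were lower. They included 6 gene transcripts, all lower, against 55.0% of all listed gene transcripts. The file does not say which genotype is the numerator. The sign was set so that Hist1h1c, Hist1h1d and Hist1h1e, known as the deleted H1 genes, were lower in TKO, so that every direction here is an inference. Fewer cells that make an RNA and less RNA per cell cannot be told apart in such bulk samples. The median log2 TKO over WT of the 8 was -2.36, against 1.38 for all listed transcripts and -1.74 for all listed lower ones. In the authors' table each listed transcript has an absolute log2 value of at least 1.00, and no p-value or value per sample is given.

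In the authors' deposited table, 5 adjacent genes had nearly the same value. From Mzt1 to Klf5, over 384 kb, the log2 TKO over WT of the gene transcripts was -2.48 for Mzt1, -2.55 for Bora, -2.39 for Dis3, -2.34 for Pibf1 and -2.23 for Klf5. These values correspond to 4.68-fold to 5.87-fold less chromatin-bound RNA in TKO. An intergenic transcript named for Klf5, on the opposite strand (chr14:99320331-99326111), had -2.16 in the authors' deposited table. The transcripts of Bora and Dis3 overlap on opposite strands, and the labels do not say whether reads were counted by strand.

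The other 2 listed transcripts lay at the ends of this pattern. In the authors' deposited table, Klf12, a transcriptional repressor gene of the same family as Klf5 (transcript at chr14:99846508-100149796, minus strand), had the lowest value, -3.38 or 10.4-fold lower in TKO. An antisense transcript within Pcdh9 (chr14:93214981-93220941, plus strand) had the highest, -1.45 or 2.73-fold lower. Between the Pcdh9 antisense transcript and Mzt1 the table listed no transcript over 5.81 Mb, the part where WT peaks were densest.

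**Figure D5:**
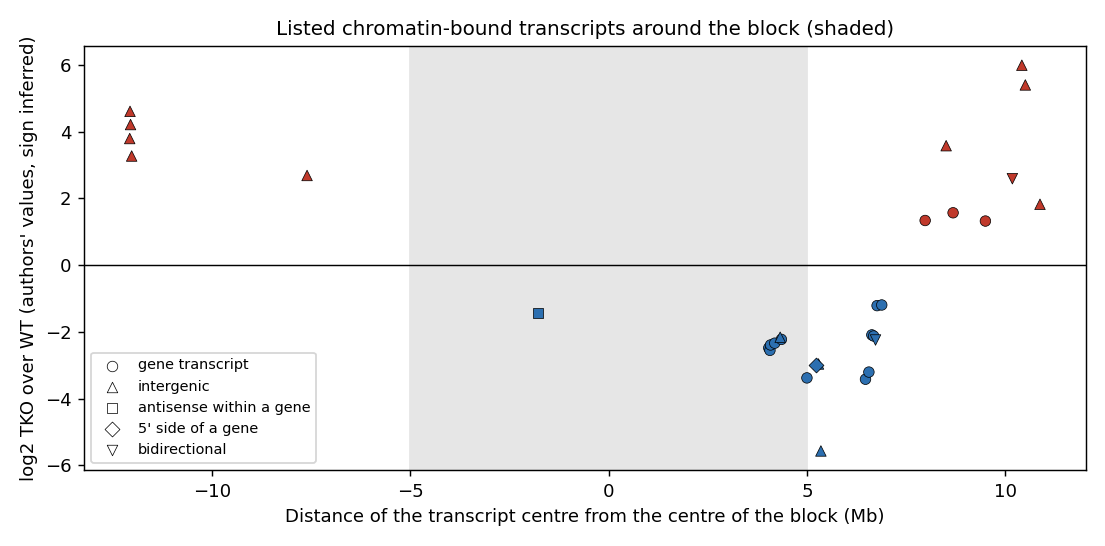
Log2 TKO over WT of listed chromatin-bound transcripts in the authors' table (vertical axis, sign inferred from the deleted H1 genes) against the distance of each transcript's centre from the centre of the block (Mb); shapes give the transcript class, red is higher and blue lower in TKO, and the block is shaded. The 8 transcripts of the block lie between -3.38 and -1.45, and those below zero go on past its upper end.

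As with the peaks, the lower transcripts went on past 100 Mb. The run of consecutive lower transcripts on chromosome 14 held 18 transcripts under 11 gene names, from 93214981 to 101947507, and 10 of the 18 started after 100 Mb. In the authors' deposited table these included Tbc1d4, a regulator of glucose transporter traffic, with 2 transcripts at -3.42 and -3.20. They also included Commd6 at -2.09, the ubiquitin hydrolase gene Uchl3 at -2.12 and Lmo7, with 2 gene transcripts at -1.21 and -1.19. The run ended before Kctd12, which was higher in TKO by a log2 value of 1.34 in the authors' deposited table. Below the run, all 5 listed transcripts from 80 to 90 Mb were higher in TKO, and from 100 to 110 Mb 10 were lower and 8 higher. By number of gene names this run shared place 5 of 650 runs of lower transcripts in the genome, and the 4 with more names lay on chromosome 6. By number of transcripts it shared place 7. Such runs were thus not particular to the block.

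Peaks were also counted over the span of each listed gene transcript, which can reach past the annotated gene. The Klf5 transcript of 111 kb overlapped 3 and 0 peaks in TKO, against 8 and 5 in WT, and Klf12 1 and 0 in TKO, against 6 and 1 in WT. Mzt1 overlapped 2 and 1 peaks in TKO and 2 and 0 in WT, and Pibf1 3 and 0 in TKO and 4 and 1 in WT. Bora overlapped 1 and 0 in TKO and 2 and 0 in WT, and Dis3 1 and 0 in TKO and 1 and 0 in WT. Among these 6 gene transcripts, Klf5 was the one where both WT counts exceeded both TKO counts. How many of all listed gene transcripts do so was not counted, so this is a description and not a result about Klf5. The values of Mzt1, Bora, Dis3 and Pibf1 in the authors' deposited table were about as low as that of Klf5. On the annotated body of Klf5, of 16.3 kb, there were 1 and 0 peaks in TKO, against 3 and 0 in WT. The genotypes were thus not apart on the gene itself.

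Families to which the block's genes belong were counted over the genome in the authors' deposited table. There, 4.80% of all 21924 protein-coding genes had a lower gene transcript and 4.14% a higher one. Each family was listed because it has members in the block, so the block's own genes add to its count. Of 17 KLF transcription factor genes, 5 had a lower gene transcript and 0 a higher one. Outside the block these were Klf15 at a log2 TKO over WT of -1.82, Klf3 at -1.06 and Klf7 at -1.01 in the authors' deposited table, all nearer to zero than Klf5 and Klf12. Of 24 genes of the RNA exosome and nuclear RNA decay, 1 was lower, Dis3, and 0 higher. Of 13 genes of spindle poles and mitotic entry, the 3 lower ones, Bora, Mzt1 and Pibf1, all lie in the block, and 0 were higher. Of 10 delta protocadherin genes, Pcdh1 was lower (-1.77) and Pcdh19 higher, with transcripts at 1.79 and 2.60 in the authors' deposited table, while Pcdh9 had no listed gene transcript.

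The cell type could not be checked from these files beyond promoter peaks. Of 10 embryonic stem cell and 8 fibroblast marker genes 0 had a listed gene transcript, which at the shares just given says little. Promoter peaks lay on 5 and 1 of the stem cell markers in TKO and 7 and 0 in WT, and on 2 and 0 of the fibroblast markers in TKO and 3 and 0 in WT. Of all protein-coding genes, 50.2% and 14.6% had one in TKO and 45.1% and 11.5% in WT.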

How the data were processed

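Per the submitters' processing notes, BWA and MACS2 were used for MapR, and TopHat2, BWA, SAMtools, bedtools and DESeq2, with build mm10, for cheRNA; versions, options, control libraries and the MapR build are not stated there. All peaks lay within GRCm38 chromosomes. The authors deposited 1 peak list per library, with fold enrichment (a ratio), -log10 p, -log10 q and a score per peak. The authors deposited cheRNA as log2 fold changes, multiplied here by -1. The members, lists and measures were chosen with earlier results of these data known. Named were all listed transcripts and coding genes of the span, regions in all 4 RNH lists, TKO replicate 2 peaks, the 10 tallest regions of both WT lists and peaks at the limits; of the tallest, those shown are described. One region in all 4 RNH lists, which also met control peaks and holds 2 of the peaks at the limits, is not reported here. Overlaps needed 1 bp. Genes and starts came from GENCODE M21. Block and rest were compared within libraries by exact sign-flip tests. Functions were tested on simulated data. Python 3.11.15, pandas 2.3.3, pysam 0.24.0 and samtools 1.23.1 were used. Alternatives are in the closing section.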

Additional observations from a re-analysis of the deposited data

Results flagged for a closer look

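The difference of median log2 fold enrichment between the block's RNH peaks and the rest of the same library ran in opposite directions in the 2 genotypes. It was 0.18 in TKO replicate 1 and 0.32 in TKO replicate 2, against -0.36 in WT replicate 1 and -0.36 in WT replicate 2. The difference between the genotypes was not tested, because the block was chosen on these libraries.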

How the results depend on the processing

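Of 52 alternatives, 43 were counted as the same, 7 as moved in size and 2 as reversed. Within the 43, the share of peaks moved by less than the spread between replicates. Counts stayed within 1.5 times the reported value, so the sizes still varied. Values with a test kept their sign and stayed above the threshold for p. The latter was fixed in advance, since 4 or fewer libraries can give no p below 0.125, so only the sign was open. The log2 TKO over WT share of peaks ranged from -4.35 to -3.17 without 1 library, was -2.96 at a -log10 q of at least 5 and -3.78 with same-numbered replicates paired (replicate block), although nothing in the labels ties the numbers to shared cultures and 2 pairs cannot show it. The 57 regions of both WT lists without a TKO peak became 14 of 19 at the stricter threshold and 16 of 18 with equal list lengths, and ranged from 57 to 223 without 1 library (158 without WT replicate 1 and 223 without WT replicate 2, where the peaks of the remaining WT list were counted). From 91 to 99 Mb, 1 transcript was listed, and it was lower, and the TKO control had 0 peaks. The WT control had 2 peaks at the stricter threshold. The mean difference in log2 fold enrichment, -0.06, reversed to 0.04 without WT replicate 1 and to 0.047 without WT replicate 2, and ranged from -0.18 to 0.047 without 1 library. Fewer libraries and fewer peaks are the construction of these settings. Read depth is unknown, and the table gives no error for any fold.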
